A study of Saccharomyces cerevisiae with 4 samples.

Results

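The glyoxalases and the Hsp31 family of Saccharomyces cerevisiae are enzymes that remove reactive carbonyl compounds, and 7 genes were named for this set: GLO1, GLO2, GLO4, HSP31, HSP32, HSP33 and SNO4. Members were found by gene symbol in the platform annotation of the probe sets. Of the 7 genes, 5 had an annotated probe set, with 1 probe set each, out of 5449 S. cerevisiae genes tested. HSP32 and HSP33 had no probe set under their own names and were not analysed here as separate genes. The study grew the haploid strain W1588-4c in glucose medium to exponential phase and compared cells given 0.4 mM allyl alcohol for 3 h with cells left untreated, with 2 Affymetrix arrays in each group. Both groups had the same background: mating type MATa, with RAD5+ and the alleles ura3-1, trp1-1, leu2-3, 112, his3-11,15, can1-100 and ade2-1. The labels give no matching time for the untreated cultures, so growth time and treatment cannot be told apart. The labels describe the 2 experiments per group as independent.

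Methylglyoxal, a by-product of glycolysis, binds glutathione without an enzyme, and glyoxalase I (Glo1) turns the adduct into S-lactoylglutathione. Glyoxalase II, cytosolic as Glo2 and mitochondrial as Glo4, hydrolyses that thioester to D-lactate and returns the glutathione. Hsp31 belongs to the DJ-1 superfamily, acts as a chaperone, and converts methylglyoxal to D-lactate with no need of glutathione. Hsp32, Hsp33 and Sno4 (also called Hsp34) are its close paralogues. Allyl alcohol is oxidised by yeast alcohol dehydrogenases to acrolein, another reactive carbonyl that consumes glutathione.

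The probe sets of GLO1 (YML004C, 1777589_at), GLO2 (YDR272W, 1771630_at), GLO4 (YOR040W, 1773085_at) and HSP31 (YDR533C, 1774696_at) carry the plain suffix that the array maker gives to a set designed for a single transcript. The set annotated to SNO4 (YMR322C, 1770073_s_at) carries the s mark of a set whose probes match several transcripts. HSP32 (YPL280W), HSP33 (YOR391C) and SNO4 are near-identical in sequence, so this set may also measure HSP32 and HSP33. Which transcripts its probes match was not checked here, and signal from the 3 genes is not separated. The set is called the SNO4 shared set below. In such bulk samples, fewer cells that express a gene and less of its RNA per cell cannot be told apart either. Each value is an RMA signal on a log2 scale, so a difference of 1 is a 2-fold change. Levels are compared between arrays for the same probe set and never between probe sets.

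Arrays stood apart against their labels. Across the 5449 genes, which are not independent replicates, Pearson's r was 0.740 between the arrays labelled allyl alcohol replicates 1 and 2, and 0.757 between the arrays labelled untreated replicates 1 and 2. Across labels, r was 0.996 between allyl alcohol replicate 2 and untreated replicate 1, and 0.991 between allyl alcohol replicate 1 and untreated replicate 2. Every sample is therefore named by its label, and each direction below is the direction of the labels. Labels exchanged between 2 arrays and a difference between the experiments cannot be told apart from these values. If labels were exchanged, no allyl alcohol minus untreated difference below, and no count of calls from it, would be a clean comparison of treated with untreated cells. Background was the 95th percentile of 1746 probe sets named for genes outside the S. cerevisiae table. It lay between 5.28 and 5.64 on the 4 arrays, and 97.4% to 99.4% of genes were above it. All 5 member sets were above it on all 4 arrays, also at the 99th percentile. A probe set with the like name glo1, whose gene is outside the S. cerevisiae table, had 4.13 and 4.10 on the allyl alcohol arrays and 3.97 and 4.06 on the untreated arrays, below background on each. As a check of the labelled MATa strain, all 7 a-specific genes examined were above background on all 4 arrays, but so were all 4 alpha-specific genes. Summed log2 signals of the a-specific genes were 73.5 and 84.4 on allyl alcohol replicates 1 and 2, and 84.9 and 72.7 on untreated replicates 1 and 2. Those of the alpha-specific genes were 38.2 and 34.5 on the allyl alcohol arrays and 35.0 and 38.2 on the untreated arrays, in the same order. The alpha-specific genes did not move together: SAG1 had log2 differences of 2.48 between the allyl alcohol arrays (replicate 1 minus 2) and 2.26 between the untreated arrays (replicate 2 minus 1), and STE3 had -0.45 and -0.42. MF(ALPHA)2 had 0.82 and 0.57, which turned to -0.22 and -0.26 after quantile normalization anew. Nor did the a-specific genes move alike, which their sums do not show. In the same order of subtraction BAR1 had -2.85 and -3.12, AGA2 had -0.37 and -0.58, and ASG7 had 0.22 and -0.24. Of the 7 a-specific genes, 6 had the same sign inside both labels, where 93.6% of all genes did.

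GLO1, the glutathione-dependent first enzyme, had a log2 signal of 13.77 and 13.20 on allyl alcohol replicates 1 and 2, and 13.20 and 13.82 on untreated replicates 1 and 2. Each label thus held a higher and a lower array, and the groups overlapped. GLO1 averaged 13.48 ± 0.40 in allyl alcohol samples and 13.51 ± 0.43 in untreated samples (SD, n = 2 each). The log2 difference was -0.03 with a standard error of 0.44, a 95% interval from -1.28 to 1.23, and an adjusted p of 1 in limma, the linear model fitted across all genes.

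GLO2, the cytosolic hydrolase of the second step, was arranged the other way round. Its log2 signal was 9.88 and 11.54 on allyl alcohol replicates 1 and 2, and 11.71 and 10.26 on untreated replicates 1 and 2. The low arrays were allyl alcohol replicate 1 and untreated replicate 2, the arrays on which GLO1 was high. GLO2 averaged 10.71 ± 1.18 in allyl alcohol samples and 10.98 ± 1.03 in untreated samples (SD, n = 2 each), and the groups overlapped. The log2 difference of -0.28 had a standard error of 0.87, a 95% interval from -2.77 to 2.22, and an adjusted p of 1 in limma. This interval leaves room for more than a 4-fold change in either direction, and its width follows the gap between arrays of the same label.

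GLO4, the mitochondrial isoenzyme of GLO2, was the most level of the 5. It had a log2 signal of 8.15 and 8.29 on allyl alcohol replicates 1 and 2, and 8.39 and 8.14 on untreated replicates 1 and 2. All 4 arrays lay within 0.26 of each other. GLO4 averaged 8.22 ± 0.10 in allyl alcohol samples and 8.26 ± 0.18 in untreated samples (SD, n = 2 each). The log2 difference was -0.05 with a standard error of 0.33, a 95% interval from -0.99 to 0.90, and an adjusted p of 1 in limma.

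HSP31, the glutathione-independent enzyme and chaperone, had a log2 signal of 13.97 and 12.79 on allyl alcohol replicates 1 and 2, and 12.95 and 13.95 on untreated replicates 1 and 2. Its high arrays were the same as those of GLO1, and the groups overlapped. HSP31 averaged 13.38 ± 0.83 in allyl alcohol samples and 13.45 ± 0.71 in untreated samples (SD, n = 2 each). The log2 difference was -0.07 with a standard error of 0.65, a 95% interval from -1.93 to 1.79, and an adjusted p of 1 in limma.

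The SNO4 shared set had the widest spread. Its log2 signal was 12.01 and 9.39 on allyl alcohol replicates 1 and 2, and 9.72 and 11.93 on untreated replicates 1 and 2, high and low on the same arrays as HSP31. The set averaged 10.70 ± 1.85 in allyl alcohol samples and 10.82 ± 1.56 in untreated samples (SD, n = 2 each). The log2 difference was -0.12 with a standard error of 1.30, a 95% interval from -3.86 to 3.61, and an adjusted p of 1 in limma. An increase or a decrease of several fold is inside that interval, whose width also follows the gap between arrays of the same label.

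**Figure D1:**
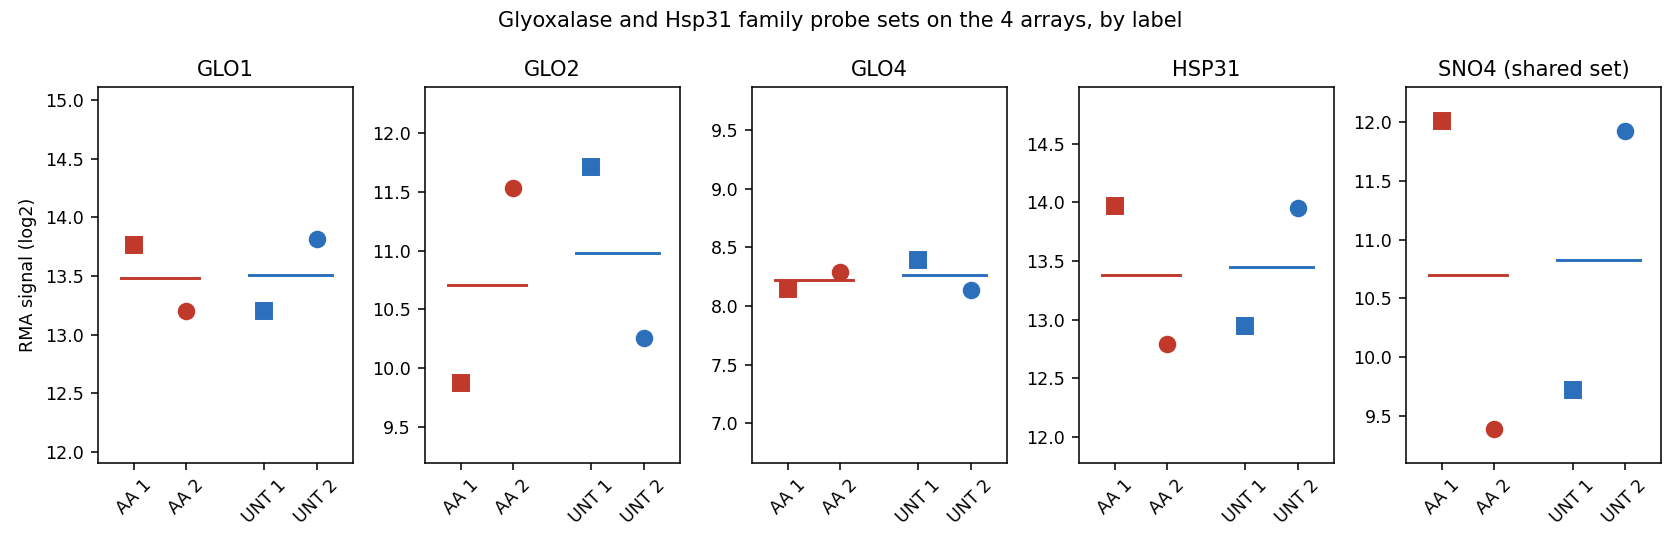
Log2 RMA signal of the 5 member probe sets on each array. AA 1 and AA 2 are the arrays labelled allyl alcohol replicates 1 and 2, UNT 1 and UNT 2 those labelled untreated replicates 1 and 2, horizontal lines are group means (n = 2), squares are replicate 1 and circles replicate 2, and every panel spans the same number of log2 units. GLO1, HSP31 and SNO4 were higher on AA 1 and UNT 2, GLO2 was higher on AA 2 and UNT 1, and the 4 GLO4 values lay within 0.26 of each other.

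The question of the study's design is which transcripts differ after allyl alcohol, and by the labels no member passed the test. Of the 5 members, limma called 0 higher and 0 lower at an adjusted p of 0.05, against 0% of all 5449 genes called, and 0 of the 5449 had an unadjusted p under 0.05. The smallest unadjusted p in limma was 0.769 among the members, that of GLO2, and 0.218 among all genes. The groups overlapped for all 5 members, while 5.23% of all genes had groups that did not overlap. The median log2 difference, allyl alcohol minus untreated, was -0.07 over the 5 members and -0.02 over all genes. All 5 member differences were below 0, as were 58.0% of those of all genes. With 2 arrays in each group, the smallest two-sided p of an exact permutation is 1 in 3.

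Because each label joined a high and a low array, the result turned on which arrays were set against each other. Between same-numbered arrays, allyl alcohol replicate 1 minus untreated replicate 1 gave log2 differences of 0.56 for GLO1, -1.83 for GLO2, -0.25 for GLO4, 1.02 for HSP31 and 2.29 for the SNO4 shared set. For replicate 2, the same subtraction gave -0.62 for GLO1, 1.28 for GLO2, 0.15 for GLO4, -1.16 for HSP31 and -2.54 for the SNO4 shared set. Every member changed sign between the 2 replicate numbers. At least 2-fold apart were 3 of the 5 members for each number, where 39.5% of all genes were for replicate 1 and 39.7% for replicate 2.

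Between differently numbered arrays the members lay close together. Allyl alcohol replicate 1 minus untreated replicate 2 gave log2 differences between -0.38 (GLO2) and 0.08 (SNO4 shared set). Allyl alcohol replicate 2 minus untreated replicate 1 gave differences between -0.33 (SNO4 shared set) and -0.00417 (GLO1). In these 2 comparisons 0 of the 5 members were at least 2-fold apart, against 0.147% and 0.275% of all genes. GLO2 was lower on the allyl alcohol array in both, with -0.38 and -0.17, and so was GLO1, with -0.05 and -0.00417. The other members had opposite signs in the 2 comparisons. The medians over all genes were -0.04 and -0.01, and these single-array differences carry no test.

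**Figure D2:**
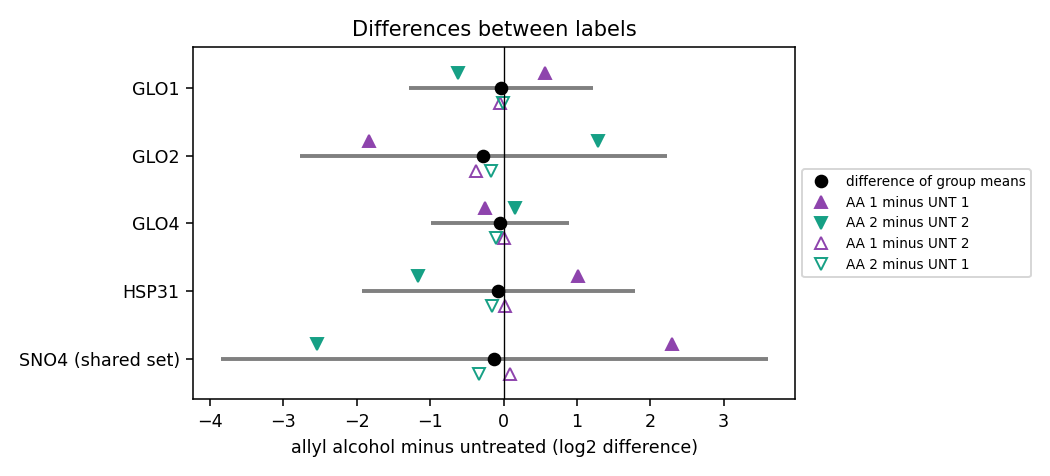
Log2 differences, allyl alcohol minus untreated, for the 5 member probe sets. Black points are differences of group means with 95% limma intervals as grey bars, filled triangles are differences between same-numbered arrays, and open triangles are differences between differently numbered arrays. Filled triangles lie on opposite sides of 0 for every member, and open triangles lie between -0.38 and 0.08.

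Inside each label, the 2-fold threshold placed the members in 3 classes by the differences between its 2 arrays. Such differences compare single arrays of the same label, with no test, and were taken in the order allyl alcohol replicate 1 minus replicate 2 and untreated replicate 2 minus replicate 1. That order was chosen with earlier results of these data known. HSP31 and the SNO4 shared set were at least 2-fold higher inside both labels, and 18.6% of all genes were. HSP31 differed 2.26-fold inside allyl alcohol and 2.01-fold inside untreated, which puts its untreated value at the edge of the threshold. The SNO4 shared set differed 6.16-fold inside allyl alcohol and 4.62-fold inside untreated. Only 5.41% of all genes had a larger absolute difference inside allyl alcohol than this set and 8.17% inside untreated.

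GLO2 was the member at least 2-fold lower inside both labels in that order, where 15.8% of all genes were. It differed by -1.66 on the log2 scale, or 3.17-fold, inside allyl alcohol, and by -1.45, or 2.74-fold, inside untreated. Larger absolute differences were found in 18.8% of all genes inside allyl alcohol and in 22.4% inside untreated. GLO1 was higher by a log2 difference of 0.57 inside allyl alcohol and 0.61 inside untreated, that is 1.48-fold and 1.53-fold. For GLO1, 63.0% of genes differed more inside allyl alcohol and 58.2% inside untreated, so its difference was smaller than that of most genes on the array. GLO4 had -0.14 inside allyl alcohol and -0.26 inside untreated, and 90.2% and 81.1% of genes differed more. After quantile normalization anew GLO4 had -0.35 inside allyl alcohol and -0.44 inside untreated, still under 2-fold.

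In all, 3 of the 5 members were at least 2-fold apart in the same order inside both labels, and 34.4% of all genes were. The difference between these shares was not tested. Counted inside a single label, at least 2-fold differences had 3 of the 5 members and 40.8% of all genes for allyl alcohol, and 3 of the 5 members and 38% of all genes for untreated. The members had the same sign inside both labels in 5 of 5 cases, and 93.6% of all genes did. Along the pathway, GLO1 and its partner GLO2 therefore stood on opposite sides of 0, and GLO1 and HSP31, which act on methylglyoxal with and without glutathione, stood on the same side.

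**Figure D3:**
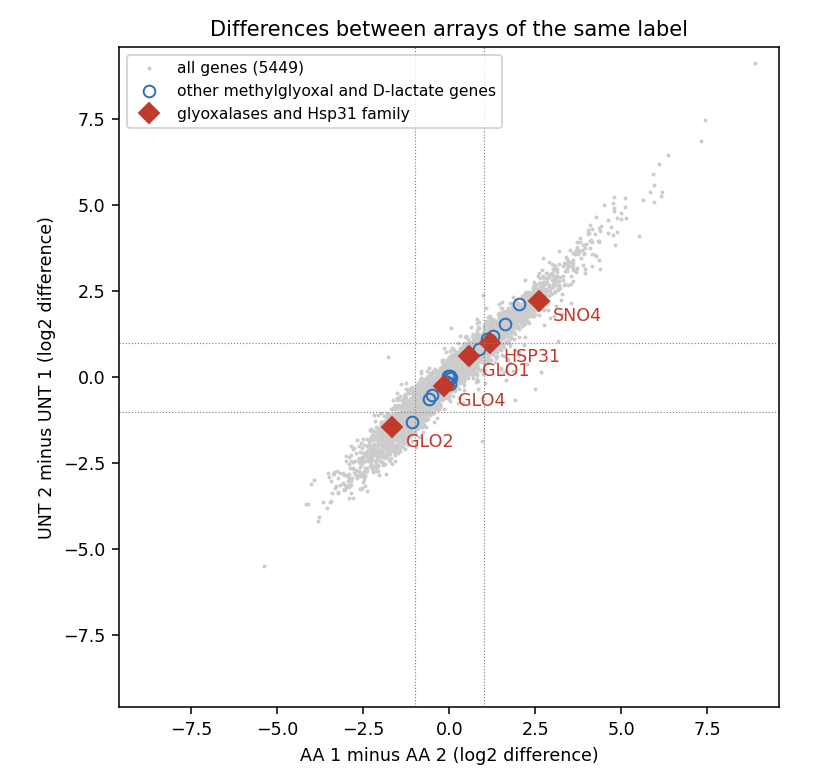
Log2 differences between arrays of the same label: allyl alcohol replicate 1 minus replicate 2 (AA 1 minus AA 2, horizontal) against untreated replicate 2 minus replicate 1 (UNT 2 minus UNT 1, vertical). Grey points are all 5449 genes, open blue circles the 15 other methylglyoxal and D-lactate genes, red diamonds the 5 members, and dotted lines mark 2-fold. SNO4 and HSP31 lie at the upper right, GLO2 at the lower left, and GLO1 and GLO4 inside the 2-fold lines.

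The same arrays differed in their added controls. The 27 poly-A control sets, which follow bacterial RNA usually added before labelling, had median log2 differences of 1.13 inside allyl alcohol and 0.86 inside untreated in the order used above. The 18 hybridisation control sets had 0.15 and 0.20. The median over all genes was -0.001055 inside allyl alcohol and 0.04 inside untreated. The part of these controls in the members' differences was not tested.

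Genes whose products feed or drain the glyoxalase pathway were taken as a list of 16, of which 15 had a probe set. TDH2 had none under its own name. Of the 15, limma called 0 higher and 0 lower in allyl alcohol against untreated, with a median log2 difference of -0.05, against -0.02 over all genes, and a range from -0.42 to 0.02. The groups did not overlap for 3 of the 15, namely GCY1, DLD2 and GSH2, where 5.23% of all genes had such groups. GCY1, an aldo-keto reductase, had a log2 signal of 11.94 and 11.92 on the allyl alcohol arrays and 12.44 and 12.25 on the untreated arrays. Its log2 difference was -0.42 with a standard error of 0.32 and an adjusted p of 1 in limma. GSH2, glutathione synthetase, had 11.88 and 11.90 on the allyl alcohol arrays and 12.03 and 12.05 on the untreated arrays. DLD2, a D-lactate dehydrogenase, had 12.02 and 12.01 on the allyl alcohol arrays and 12.03 and 12.07 on the untreated arrays, so its groups were separate by a very small margin.

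Inside both labels, 5 of the 15 genes were at least 2-fold higher in the same order as HSP31 and 1 was at least 2-fold lower, where 18.6% and 15.8% of all genes were, and 9 of the 15 stayed under 2-fold. The difference of these shares was not tested. The list medians were 0.02 inside allyl alcohol and 0.03 inside untreated, close to those of all genes. On the glutathione side, GSH1, the first enzyme of glutathione synthesis, differed 4.09-fold inside allyl alcohol and 4.43-fold inside untreated, while GSH2 differed 1.02-fold inside both. GLR1, glutathione reductase, differed 2.13-fold inside allyl alcohol and 2.15-fold inside untreated.

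Among the reductases that act on methylglyoxal by another route, GRE2 was higher with GLO1 and HSP31, by 3.08-fold inside allyl alcohol and 2.93-fold inside untreated. YPR1, an aldo-keto reductase, was also higher, by 1.83-fold and 1.76-fold in the same order of labels. ARA1 had log2 differences of -0.58 and -0.64, and GRE3, the aldose reductase, had -0.19 and -0.27.

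D-lactate, the product of both glyoxalase routes, is oxidised by D-lactate dehydrogenases, as which DLD1, DLD2 and DLD3 are known. DLD1, the mitochondrial enzyme linked to cytochrome c, was lower by 2.13-fold inside allyl alcohol and 2.44-fold inside untreated, in the direction of GLO2. DLD3, a cytosolic enzyme, was higher by 2.28-fold and 2.13-fold, and DLD2 differed 1.01-fold and 1.03-fold. JEN1, the lactate permease, was higher by 2.42-fold inside allyl alcohol and 2.32-fold inside untreated. Of the glycolytic genes at the source of methylglyoxal, triose phosphate isomerase TPI1 had log2 differences of -0.05 and -0.15. The dehydrogenase TDH3 had 0.05 and -0.03. TDH3 held the highest signal of the array on allyl alcohol replicate 2 (14.60) and untreated replicate 1 (14.67). Whether signal near the top of the range limits such differences was not tested. TDH1 was lower by 0.50 on the log2 scale inside allyl alcohol and 0.52 inside untreated.

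Among 7 regulators, YAP1, the oxidative stress factor on which HSP31 induction is known to depend, was the only 1 at least 2-fold apart inside both labels, where 34.4% of all genes were. YAP1 had a log2 signal of 12.51 and 10.71 on allyl alcohol replicates 1 and 2, and 10.87 and 12.29 on untreated replicates 1 and 2, high on the arrays where HSP31 was high. At least 2-fold higher on these arrays inside both labels were 18.6% of all genes. A link between YAP1 and HSP31 was not tested. MSN4, which with MSN2 and the kinase gene HOG1 is known for GLO1 induction under osmotic stress, had log2 differences of -0.92 inside allyl alcohol and -0.996 inside untreated. MSN2 had 0.24 and 0.34, and HOG1 had 0.62 and 0.54. CAD1 had -0.29 and -0.19, and the stress factor SKN7 had -0.75 and -0.37. HSF1, the heat shock factor, had 0.15 inside allyl alcohol and -0.27 inside untreated. By label its log2 signal was 10.43 and 10.28 on allyl alcohol arrays and 10.24 and 9.97 on untreated arrays, a difference of 0.25 with a standard error of 0.33 and an adjusted p of 1 in limma.

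HSP32, HSP33 and SNO4 each lie beside a gene of the enolase-like ERR family in the RefSeq table of assembly R64, which was used here for names and neighbours. The nearest named genes were ERR2 and FEX2 for HSP32, FEX1 and ERR1 for HSP33, and FET4 and ERR3 for SNO4. Of these 6, FEX1, FEX2, ERR3 and FET4 had an annotated probe set. FEX1 and FEX2, which encode closely similar fluoride exporters, were higher in the order used above. FEX1 differed 3.38-fold inside allyl alcohol and 3.01-fold inside untreated, and its set carries the s mark. FEX2 differed 3.29-fold and 3.04-fold. ERR3, also measured by an s-marked set, differed 2.14-fold and 1.43-fold. FET4, the low-affinity iron transporter, went the other way, lower by 10.8-fold inside allyl alcohol and 12.1-fold inside untreated. The sets annotated to the neighbours on both sides of SNO4 thus differed in direction from each other. Which transcripts the s-marked ERR3 set matches was not checked here, so its signal may not be that of ERR3 alone.

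**Figure D4:**
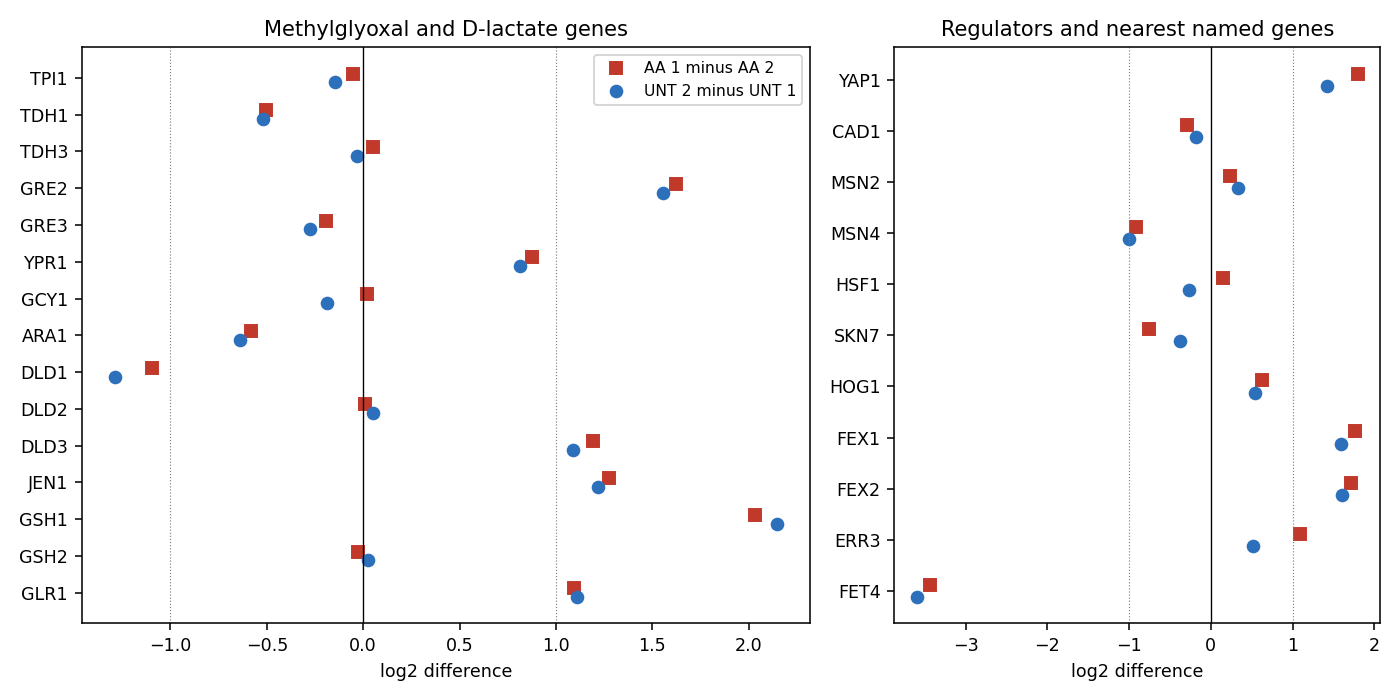
Log2 differences between arrays of the same label for the 15 other methylglyoxal and D-lactate genes (left) and for the 7 regulators and 4 nearest named genes (right). Red squares are allyl alcohol replicate 1 minus replicate 2, blue circles are untreated replicate 2 minus replicate 1, and dotted lines mark 2-fold. GSH1, GRE2, JEN1, DLD3, GLR1, YAP1, FEX1 and FEX2 lie beyond 2-fold on the right in both labels, and DLD1 and FET4 on the left.

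The genes most like each member over the 4 arrays were found by the Euclidean distance between log2 profiles, with each gene's own mean subtracted, among 5448 other genes. GLO1 was closest to CDC28, the cyclin-dependent kinase gene, at a distance of 0.023, then to RGA1 (0.0256) and TFB6 (0.0329), where the median gene was 0.940 away. GLO2 was closest to SEY1, a gene for membrane fusion in the endoplasmic reticulum (0.0660), SEN54, for a tRNA splicing subunit (0.0687), and ECM9 (0.0716), with a median gene at 1.62. GLO4 was closest to ALR2 (0.0174), YPR089W (0.0218) and PNP1, the purine nucleoside phosphorylase gene (0.0266), with a median gene at 0.813. HSP31 was closest to GSF2 (0.0338), ALD4, the mitochondrial aldehyde dehydrogenase gene (0.0401), and EDC1 (0.0416), with a median gene at 1.23. Profiles of 4 arrays that fall into a high and a low pair leave little to distinguish genes by, and the distances are given as a description. Among the members themselves the closest pair was GLO1 and HSP31, at 0.514, and the farthest GLO2 and the SNO4 shared set, at 3.99.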

How the data were processed

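The values are RMA signals that the authors deposited, 1 for each of 10928 probe sets on each array. Per the submitters' processing notes the tools were Affymetrix Expression Console and RMA, with version and settings not given in the sources used here. What the authors deposited was taken to be log2 because the range was 2.78 to 14.75. RMA by default quantile normalizes arrays, which partly removes broad changes in total mRNA.

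Of the probe sets, 7244 had 1 gene symbol, 1 had several and 3683 had none, and 5498 matched an S. cerevisiae gene of the RefSeq table (assembly R64), giving 5449 genes. For 47 genes with several sets the highest mean stood for the gene. Groups followed the labels. The comparison of allyl alcohol with untreated used limma 3.58.1 (R 4.3.3), lmFit and eBayes, two-sided, without a block, with Benjamini-Hochberg adjustment over all genes at 0.05. The fit was tested on simulated data with independent noise. Those data lacked the large differences between arrays of the same label seen here, so the test does not cover them. The number of arrays and the large differences between arrays of the same label limit the precision.

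The members and lists were chosen with earlier results of these data known. Named genes are all members, the methylglyoxal and D-lactate list, 7 regulators, the nearest named genes of HSP32, HSP33 and SNO4, and the 3 most like genes of each member with a gene-specific set. A planned motif search in promoters was not run, and no sequence was used here. Alternatives were each array left out, a replicate block, other scalings, an intensity trend, other probe set rules and filters on dim genes.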

Additional observations from a re-analysis of the deposited data

How the results depend on the processing

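In limma, 0 genes were called in each alternative that was run. An unadjusted p under 0.05 was found for 0 genes, apart from 9 of 10928 probe sets when all sets of the array were tested and 188 genes with a crossed block. Arrays that share a replicate number deviated from their groups in opposite directions (correlation across genes -0.973). Whether the replicate numbers mark pairs cannot be told from this value, because the deviations are taken from the means of the labels. A fit with the replicate block called 0 genes and 0 of the 5 members. A block that pairs the arrays crosswise, chosen after seeing the data, also called 0 genes. Leaving out each array in turn gave both signs for every member, with ranges of -0.34 to 0.28 for GLO1, -1.11 to 0.56 for GLO2, -0.17 to 0.0816 for GLO4, -0.66 to 0.52 for HSP31 and -1.44 to 1.19 for the SNO4 shared set. GLO1, HSP31 and SNO4 were positive without untreated replicate 2 (0.28, 0.43 and 0.98) or allyl alcohol replicate 2 (0.26, 0.52 and 1.19). GLO2 and GLO4 were positive without untreated replicate 1 (0.45 and 0.0816) or allyl alcohol replicate 1 (0.56 and 0.0251). Here the lone array of a label is assumed to vary like the others. Under the other alternatives all 5 kept their sign. Averaging probe sets changed nothing for the members, which have 1 each. Of the members, 3 were at least 2-fold apart inside both labels, and 2 after centring each array on its median, where HSP31 had 0.94 inside untreated, or over the gene-specific sets alone.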
